A study of Homo sapiens with 24 samples.

Results

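The comparison described here is between U937 cells carrying a lentiviral short hairpin RNA that targets SUV39H1, hairpin 2 in the submitters' numbering, and U937 cells carrying a scrambled hairpin. Its members were chosen by label: the 3 libraries of SUV39H1 hairpin 2 and the 3 libraries of the scrambled hairpin, 6 of 24 libraries in all. U937 is an established human myelomonocytic leukaemia line, grown in RPMI with serum. The study asked what follows when the protein complex of SUV39H1, G9a and GLP is disturbed, by bulk RNA-seq of total RNA. Beside hairpin 2 and the scrambled control, a second SUV39H1 hairpin (hairpin 4) and a pair of G9a hairpins (2 and 3) are used below, each with 3 libraries. The labels give puromycin selection for 3 days after transduction for the SUV39H1 and G9a hairpins; they state none for the scrambled cells. All these groups carry a lentiviral hairpin. The spread behind the p-values was estimated from all 24 libraries of the series, which include cells treated with UNC0638 or DMSO. The labels do not say whether replicates were separate cultures, so p-values measure only the spread between libraries.

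SUV39H1 is a histone methyltransferase that places the trimethyl mark on lysine 9 of histone H3, and HP1 proteins read that mark to build compact, silent heterochromatin at centromeres and over repeats. G9a (EHMT2) and GLP (EHMT1) form a heterodimer that writes mainly the dimethyl mark on the same lysine in euchromatin. In monocyte-like cells, type I interferon acts through transcription factors that include STAT2 and IRF9, which bind interferon-stimulated response elements in the promoters of antiviral genes. Sensors of double-stranded RNA and DNA, among them RIG-I, MDA5 and cGAS, lie upstream of interferon production.

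The hairpin 2 libraries held 31545854 to 40069499 gene counts, against 34247076 to 52218785 in the scrambled libraries. Levels are TMM-scaled CPM, that is, counts divided by the size of the library and put on a common scale. Differences are log2 fold changes, hairpin 2 minus scrambled unless another reference is named, ± standard error. A gene or repeat was called where the adjusted p of edgeR's quasi-likelihood test was under 0.05. The median log2 change over all 20147 genes tested was 0.02. The myelomonocytic markers CD33, ITGB2, SPI1, CSF3R and TYROBP were detected in all 6 libraries; CD33 had 96.7, 94.6 and 105 CPM with hairpin 2, against 96.7, 99.2 and 105 CPM with the scrambled hairpin. The defining markers CD3D and CD3E of T cells, HBB of red cells, and EPCAM and COL3A1 of epithelium and fibroblasts had no count in any of the 6 libraries. Within both groups replicate 3 stood furthest from the rest: the chi-square of gene counts per degree of freedom was 5.54 and 5.32 between hairpin 2 replicate 3 and the other two, against 2.73 between replicates 1 and 2. For scrambled it was 4.99 and 7.67, against 1.98. With replicate 3 of both groups left out, a setting added after the data were seen, 6261 genes were higher and 6081 lower, and 564 repeats were higher and 54 lower. Calls lost in that fit are named beside the genes.

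SUV39H1 mRNA fell to 32.0% of the scrambled level in hairpin 2 cells. The gene (chromosome X, 48553945 to 48567403, plus strand, hg19) had 18.2, 18.9 and 18.9 CPM in hairpin 2 libraries, against 59.8, 56.5 and 58.3 CPM in scrambled libraries. Every hairpin 2 library was below every scrambled library, with a log2 change of -1.64 ± 0.07 (edgeR quasi-likelihood, Benjamini-Hochberg adjusted p = 1.56e-17). Its closest relative SUV39H2 also fell, with 13.9, 13.3 and 13.2 CPM in hairpin 2 libraries, against 30.1, 34.4 and 29.9 CPM in scrambled libraries (log2 -1.23 ± 0.07, edgeR quasi-likelihood, Benjamini-Hochberg adjusted p = 1.32e-14). AF196970.3, a transcript annotated on the opposite strand over the SUV39H1 locus, fell by 2.15 on the log2 scale; the library kit does not keep strand, so reads of such overlapping genes cannot be told apart. This antisense gene was picked for its position after its values were seen.

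Among the other H3K9 methyltransferases, both subunits of the G9a/GLP pair fell less than SUV39H1. EHMT1 had 54.5, 54.1 and 53.3 CPM in hairpin 2 libraries, against 87.8, 82.2 and 83.5 CPM in scrambled libraries (log2 -0.65 ± 0.05). For EHMT2 the values were 107, 108 and 111 CPM in hairpin 2 libraries, against 139, 139 and 154 CPM in scrambled libraries (log2 -0.41 ± 0.06, edgeR quasi-likelihood, Benjamini-Hochberg adjusted p = 3.82e-06). Neither gene's groups overlapped. SETDB2 and PRDM2 rose slightly (log2 0.37 and 0.24). SETDB1, which trimethylates the same lysine at endogenous retroviruses with TRIM28, averaged 59.9 CPM in hairpin 2 cells and 58.2 CPM in scrambled cells, a difference below the threshold (log2 0.04 ± 0.05, edgeR quasi-likelihood, Benjamini-Hochberg adjusted p = 0.47). MECOM and PRDM16 had no counts. The list thus had 2 members higher and 4 lower of 7 tested.

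Hairpin 2 cells differed from scrambled cells across most of the transcriptome. Of 20147 genes tested, 13518 (67.1%) were called, 6960 higher (34.5%) and 6558 lower (32.6%). Changes of at least 2-fold were less even: 1968 genes were higher (9.77%) and 814 lower (4.04%). The replicate libraries were close to each other, with a biological coefficient of variation of 4.63%, and small differences passed the test. The share of all genes whose groups did not overlap was not counted. A lack of overlap, wherever given in this report, therefore does not set a gene apart from the rest. The gene lists below are read against these shares. A list whose share is near 34.5% higher and 32.6% lower does not stand out from all genes. The shares varied with level: among genes with a mean of at least 100 CPM, 30.1% rose and 53.4% fell. A list of abundant genes may therefore differ from all genes through its level. In bulk RNA, more cells of a type and more RNA per cell cannot be told apart.

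Interferon-stimulated genes rose as a block. Of 86 listed genes 84 had enough counts to test, and 79 rose, against 34.5% of all genes; 1 fell and 4 did not pass. Of those that rose, 68 did so by at least 2-fold. The median log2 change of the list was 2.25, against 0.02 over all genes. Of the 20 genes with the largest rises, only interferon list members with a promoter sequence at hand were examined singly. Of these, IFI44L, IFI6, IFI44, IFIT5 and IFI27 hold in their promoters the core of the interferon-stimulated response element, and OAS1 does not. The sequences are shown because this element is where STAT2 and IRF9 are known to act.

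The element was searched as GAAA, any 2 bases and GAAA again, on both strands in the window from 250 bases before to 50 after each gene's start (RefSeq, GRCh38.p14; the counts themselves were made on hg19). OAS3, a highly expressed member, is added to these. Each stretch is printed around the match nearest the start, with others only where they lie close by; capitals mark each match within it, which begins with TTTC where it lies on the other strand, and all sequences run 5′ to 3′ along the gene.
IFI44L (chr1:78620350-78620409, plus strand): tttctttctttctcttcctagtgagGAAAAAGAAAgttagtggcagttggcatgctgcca
IFI6 (chr1:27672251-27672373, minus strand): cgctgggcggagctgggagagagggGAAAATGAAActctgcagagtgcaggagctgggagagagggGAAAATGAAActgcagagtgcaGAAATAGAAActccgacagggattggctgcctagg
IFI44 (chr1:78649746-78649788, plus strand): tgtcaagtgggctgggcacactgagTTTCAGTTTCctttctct
IFIT5 (chr10:89414498-89414567, plus strand): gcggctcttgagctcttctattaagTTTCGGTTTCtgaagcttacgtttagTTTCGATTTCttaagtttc
IFI27 (chr14:94110603-94110675, plus strand): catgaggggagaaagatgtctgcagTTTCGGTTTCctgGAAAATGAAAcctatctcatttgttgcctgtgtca
OAS3 (chr12:112938437-112938473, plus strand): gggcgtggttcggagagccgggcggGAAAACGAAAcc
Over the whole window IFI6 and IFIT5 hold 3 matches each, IFI44L, IFI27 and OAS3 hold 2 each and IFI44 holds 1, so that 1 match each of IFI44L, OAS3 and IFIT5 lies outside the printed stretch. Of the 62 tested list members with a promoter in the table, 37 (59.7%) held the element, against 1255 of 35116 promoters in all (3.57%). OAS1, PARP9 and CMPK2, which rose too, hold none in this window. Outside the interferon list the share was 4.64% among genes higher by at least 2-fold, 2.33% among genes not called and 3.86% among genes lower by at least 2-fold. A match is a description of the letters and not of a bound site.

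Effectors of the antiviral response rose steeply. IFI6, a mitochondrial and endoplasmic reticulum protein that limits cell death and flavivirus replication, had 1256, 1277 and 1168 CPM in hairpin 2 libraries, against 38.9, 35.9 and 35.0 CPM in scrambled libraries. All 3 hairpin 2 libraries lay far above the scrambled ones, a 33.7-fold difference (log2 5.08 ± 0.08, edgeR quasi-likelihood, Benjamini-Hochberg adjusted p = 4.08e-26). SIGLEC1, a macrophage receptor that binds sialic acid, had 218, 224 and 231 CPM in hairpin 2 libraries, against 6.85, 6.74 and 7.48 CPM in scrambled libraries. The oligoadenylate synthetases, which make the activator of RNase L, rose together. OAS1 had 159.5, 159 and 163 CPM in hairpin 2 libraries, against 10.4, 10.2 and 9.89 CPM in scrambled libraries (log2 3.98 ± 0.06, edgeR quasi-likelihood, Benjamini-Hochberg adjusted p = 1.48e-26). OAS3, the most abundant of them, averaged 492 CPM in hairpin 2 cells and 62.9 CPM in scrambled cells (log2 2.97 ± 0.05), and OASL averaged 34.3 CPM in hairpin 2 cells and 3.56 CPM in scrambled cells (log2 3.25 ± 0.08). OAS2 was scarce in control cells, with 9.10, 9.21 and 9.04 CPM in hairpin 2 libraries, against 0.241, 0.374 and 0.245 CPM in scrambled libraries (log2 4.93 ± 0.15). None of these genes had overlapping groups, which for IFI6, SIGLEC1, OAS1 and OAS2 was a condition of their place among the 20 largest rises.

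Several strongly changed genes were near silence in scrambled cells. IFI44L had 375, 299 and 344 counts in hairpin 2 libraries, against 0, 4 and 2 counts in scrambled libraries, or 9.03, 9.12 and 8.36 CPM with hairpin 2. Its log2 change of 7.44 ± 0.26 rests on 6 control counts and became 8.20 without scrambled replicate 2. IFI44, its neighbour on chromosome 1, had 31.9, 32.1 and 31.1 CPM in hairpin 2 libraries, against 1.06, 1.14 and 1.01 CPM in scrambled libraries (log2 4.88 ± 0.09). IFI27 averaged 6.86 CPM in hairpin 2 cells and 0.402 CPM in scrambled cells (log2 4.08 ± 0.13), and IFIT5, an RNA-binding antiviral protein, 40.9 CPM in hairpin 2 cells and 2.21 CPM in scrambled cells (log2 4.21 ± 0.11). The other IFIT genes had higher control levels and smaller changes: IFIT1 rose by 2.98, IFIT3 by 2.39 and IFIT2 by 2.17 on the log2 scale.

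**Figure D1:**
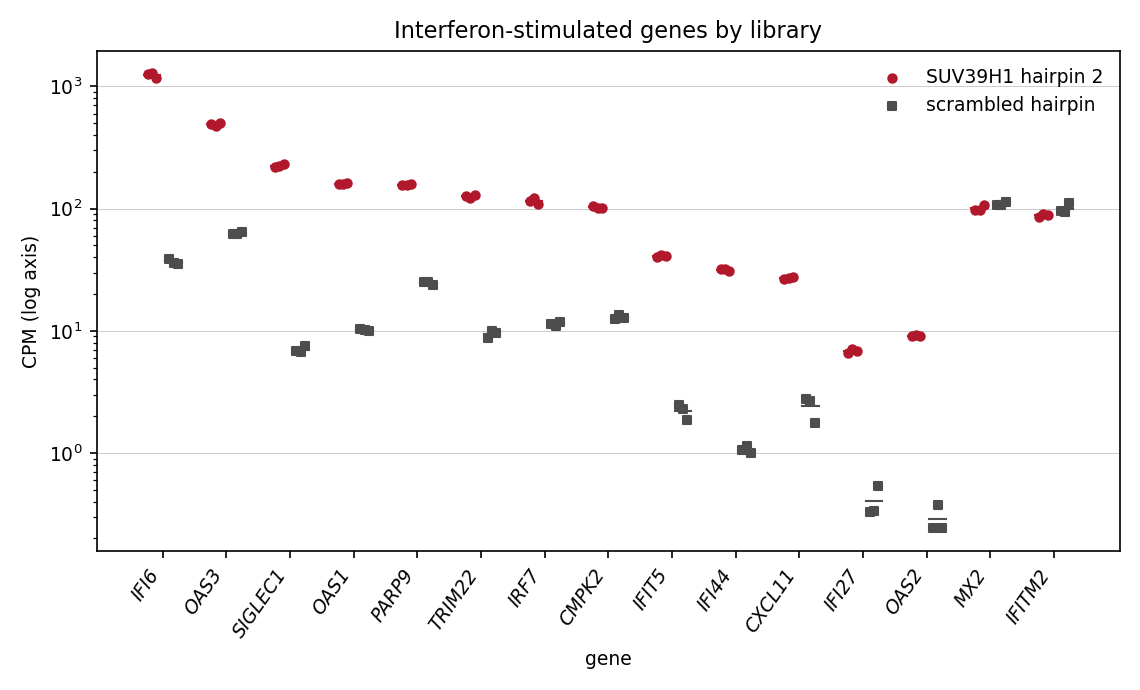
Levels of 15 interferon-stimulated genes in each library, in CPM after TMM scaling on a log axis; red circles are the 3 SUV39H1 hairpin 2 libraries, grey squares the 3 scrambled libraries, and bars their means. For IFI6 the hairpin 2 libraries sit at 1168 to 1277 and the scrambled ones at 35.0 to 38.9, whereas for MX2 and IFITM2 the 2 groups lie close together.

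The signalling genes of the pathway rose as well. STAT2 had 177, 162 and 183 CPM in hairpin 2 libraries, against 31.6, 33.2 and 33.8 CPM in scrambled libraries (log2 2.40 ± 0.05, edgeR quasi-likelihood, Benjamini-Hochberg adjusted p = 7.86e-23). IRF9, which binds DNA with it, rose by 2.29, and IRF7, the transcription factor that amplifies interferon production, had 115, 122 and 109 CPM in hairpin 2 libraries, against 11.3, 11.1 and 11.8 CPM in scrambled libraries (log2 3.34 ± 0.06). In each of these genes the hairpin 2 libraries stood above every scrambled library. ISG15, the ubiquitin-like modifier, averaged 205 CPM in hairpin 2 cells and 28.3 CPM in scrambled cells (log2 2.86 ± 0.07), and the enzymes that attach and remove it rose too: UBA7 by 2.47, UBE2L6 by 1.21, HERC5 by 2.33 and USP18 by 2.36. Cytosolic RNA helicases followed, with DDX58 (RIG-I) at 2.54, IFIH1 (MDA5) at 1.98 and DHX58 at 3.10 on the log2 scale. The RNA-activated kinase EIF2AK2 rose by 1.59 and the editing enzyme ADAR by 0.59.

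Not every classical member rose. IFITM2, a membrane protein that blocks virus entry, averaged 88.2 CPM in hairpin 2 cells and 100.1 CPM in scrambled cells (log2 -0.18 ± 0.10, edgeR quasi-likelihood, Benjamini-Hochberg adjusted p = 0.115). IFITM2 passed as lower in a fit of only the compared libraries (-0.19), without a low count filter (-0.20) and with a replicate block (-0.18). IFITM1 and IFITM3 were below 1 CPM in both groups and SLFN11 averaged 94.1 CPM in hairpin 2 cells and 95.1 CPM in scrambled cells. None of these 3 passed. MX2 was the member that fell, by 0.13 on the log2 scale, while MX1 rose by 1.63 from a low level. EPSTI1 and RTP4 had too few counts to test. The chemokines CXCL10 and CXCL11, ligands of CXCR3, rose by 2.50 and 3.48; CXCL11 had 26.4, 26.9 and 27.5 CPM in hairpin 2 libraries, against 2.78, 2.68 and 1.77 CPM in scrambled libraries.

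Transcripts of the interferons themselves were scarce. IFNB1, the first type I interferon made by many cells, had 26, 24 and 30 counts in hairpin 2 libraries, against 5, 5 and 2 counts in scrambled libraries. The groups did not overlap, and the log2 change was 2.81 ± 0.36 (edgeR quasi-likelihood, Benjamini-Hochberg adjusted p = 1.52e-07). IFNA1 had 10 counts over the 3 hairpin 2 libraries and none over the scrambled ones, and IFNL1 had 15 and 3; both were too low to test, as were IFNL2, IFNL3, IFNE and IFNG, which had none. Of the 19 genes of this list that were tested, IFNB1 among them with receptors, sensors and adaptors, 13 rose and 1 fell (median log2 0.46). The receptor chains IFNAR1 and IFNAR2 rose by 0.43 and 0.69.

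Among sensors, AIM2, which detects cytosolic DNA, averaged 11.5 CPM in hairpin 2 cells and 1.32 CPM in scrambled cells (log2 3.12 ± 0.11), and IFI16, another DNA sensor, 376 CPM in hairpin 2 cells and 92.0 CPM in scrambled cells (log2 2.03 ± 0.05). SAMHD1, which depletes deoxynucleotides, rose by 2.48 on the log2 scale, and TLR3, the endosomal receptor for double-stranded RNA, by 2.80 over a scrambled mean of 0.194 CPM. The cytosolic DNA sensor cGAS (MB21D1) and the adaptor MAVS did not pass (log2 0.06 and -0.05), nor did IRF3 (-0.01) or TBK1 (0.17). STING (TMEM173) rose by 0.46. TLR9 fell by 0.27.

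Antigen presentation was raised in both classes. For class I, 16 of 22 genes rose and 1 fell, with a median log2 change of 0.88. B2M, the light chain of class I molecules, had 3196, 3413 and 3278 CPM in hairpin 2 libraries, against 1125, 1080 and 968 CPM in scrambled libraries (log2 1.64 ± 0.08, edgeR quasi-likelihood, Benjamini-Hochberg adjusted p = 3.42e-16). Its abundance rank was 5 with hairpin 2 and 66 with the scrambled hairpin. The heavy chains HLA-B and HLA-C rose by 1.52 and 1.27, although reads of these near-identical genes may have been shared between them in counting. The peptide transporter TAP1 rose by 1.18 and the aminopeptidases ERAP1 and ERAP2 by 1.20 and 1.66 on the log2 scale. TAP2 (log2 0.04) and the proteasome subunit PSMB8 (-0.02) did not pass, and the chaperone CALR fell by 0.23.

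For class II, 9 of 13 tested genes rose and none fell, with a median of 1.17. CD74, the invariant chain, averaged 178 CPM in hairpin 2 cells and 79.0 CPM in scrambled cells (log2 1.17 ± 0.10), and the peptide exchange subunit HLA-DMA 17.1 CPM in hairpin 2 cells and 4.72 CPM in scrambled cells (log2 1.85 ± 0.08). HLA-DRB1 rose by 1.20 and HLA-DRA by 0.35. CIITA, the master regulator of class II, averaged 20.4 CPM in hairpin 2 cells and 18.6 CPM in scrambled cells and did not pass (log2 0.13 ± 0.06, edgeR quasi-likelihood, Benjamini-Hochberg adjusted p = 0.0634). HLA-DPA1 and HLA-DPB1, near 1 CPM in both groups, did not pass either.

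Inflammatory genes under NF-kB control were less uniform: 20 of 30 rose and 4 fell (median log2 0.63). CCL2, a chemokine that attracts monocytes, had 261, 258 and 256 CPM in hairpin 2 libraries, against 93.3, 99.1 and 94.0 CPM in scrambled libraries (log2 1.44 ± 0.05). The feedback inhibitors TNFAIP3, NFKBIE and NFKBIZ rose by 1.34, 1.09 and 1.09, and the apoptosis inhibitor BIRC3 by 2.40. TNF fell by 0.66, with 19.7, 18.6 and 19.9 CPM in hairpin 2 libraries, against 28.4, 30.9 and 32.9 CPM in scrambled libraries, and SOD2, CD83 and RELA fell by 0.25, 0.22 and 0.18; the call on RELA was lost without hairpin 2 replicate 2 (-0.15) or scrambled replicate 3 (-0.11), or without replicate 3 of both groups (-0.14). The subunit NFKB1 averaged 94.4 CPM in hairpin 2 cells and 94.4 CPM in scrambled cells, and CCL5 137 CPM in hairpin 2 cells and 136 CPM in scrambled cells; neither passed. Of 27 immediate early genes 13 rose and 7 fell, among them FOSL2 (log2 2.16) and FOS (1.79) higher, and EGR1 (-1.58) and DUSP2 (-1.50) lower.

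Genes of mature monocytes and macrophages rose broadly. Of 37 tested, 30 rose and 1 fell, and the median log2 change was 1.62. LYZ, the lysozyme of phagocytes, had 2503, 2484 and 2442 CPM in hairpin 2 libraries, against 488, 479.6 and 454 CPM in scrambled libraries. Hairpin 2 libraries averaged 5.23-fold the scrambled level (log2 2.39 ± 0.05, edgeR quasi-likelihood, Benjamini-Hochberg adjusted p = 2.55e-24). The integrin ITGAM, which pairs with ITGB2 as complement receptor, had 265, 262 and 285 CPM in hairpin 2 libraries, against 49.1, 49.8 and 51.0 CPM in scrambled libraries (log2 2.44 ± 0.06), and ITGAX averaged 163 CPM in hairpin 2 cells and 28.8 CPM in scrambled cells (log2 2.50 ± 0.08). Summed over the list, hairpin 2 libraries held 6772 to 6868 CPM and scrambled libraries 2595 to 2666 CPM. LYZ alone supplied a mean of 2477 CPM of this sum with hairpin 2 and 474 CPM with the scrambled hairpin.

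Receptors for chemoattractants and fungal sugars were among the largest rises. CCR2, the receptor for CCL2, had 30.8, 31.7 and 32.5 CPM in hairpin 2 libraries, against 1.33, 1.32 and 1.42 CPM in scrambled libraries (log2 4.54 ± 0.09). FPR1, which senses bacterial formyl peptides, averaged 7.63 CPM in hairpin 2 cells and 0.438 CPM in scrambled cells (log2 4.08 ± 0.17), and CLEC7A, the beta-glucan receptor, 8.69 CPM in hairpin 2 cells and 0.180 CPM in scrambled cells (log2 5.60 ± 0.17). TREM1 and S100A8 rose by 1.91 and 2.35 on the log2 scale. CLEC5A went the other way, with 9.22, 9.49 and 9.70 CPM in hairpin 2 libraries, against 87.1, 89.5 and 83.2 CPM in scrambled libraries (log2 -3.19 ± 0.05, edgeR quasi-likelihood, Benjamini-Hochberg adjusted p = 2.41e-25). CD36 (112 CPM in hairpin 2 cells and 116 CPM in scrambled cells), FCN1 (53.2 CPM in hairpin 2 cells and 52.6 CPM in scrambled cells) and CD33 did not pass. CD14, the classical monocyte marker, rose by 2.09 but averaged under 1 CPM in both groups.

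The list of progenitor and granule genes split, with 13 of 25 higher and 9 lower (median log2 0.17). ELANE, neutrophil elastase, averaged 779.9 CPM in hairpin 2 cells and 465 CPM in scrambled cells (log2 0.75 ± 0.06), and SRGN, the granule proteoglycan, 1331 CPM in hairpin 2 cells and 602 CPM in scrambled cells (log2 1.15 ± 0.07). PRTN3 fell by 0.53, GFI1 by 0.59, MEIS1 by 0.85 and HOXA10 by 0.57. Markers of other lineages stayed low or mixed: the erythroid and megakaryocyte list had 5 of 8 tested genes higher and 1 lower, and the lymphoid list 3 of 9 higher and 2 lower. The transferrin receptor TFRC supplied most of the erythroid list's sum, 521 to 528 CPM with hairpin 2 and 666 to 676 CPM with the scrambled hairpin. In the epithelial and fibroblast list, 3 of 5 rose, and VIM, which myeloid cells express too, made up nearly all of its sum of 307 to 317 CPM with hairpin 2 and 101 to 103 CPM with the scrambled hairpin.

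Lysosomal genes rose in 24 of 33 cases and fell in 4 (median log2 0.50). Cathepsin D (CTSD) had 2991, 2977 and 2941 CPM in hairpin 2 libraries, against 577, 578 and 659 CPM in scrambled libraries (log2 2.30 ± 0.08, edgeR quasi-likelihood, Benjamini-Hochberg adjusted p = 3.26e-19), with abundance rank 6 in hairpin 2 cells and rank 186 in scrambled cells. PSAP, the precursor of sphingolipid activators, averaged 1219 CPM in hairpin 2 cells and 467 CPM in scrambled cells (log2 1.39 ± 0.04). GPNMB, a macrophage glycoprotein of the endolysosome, had 698, 687 and 712 CPM in hairpin 2 libraries, against 227, 229 and 224 CPM in scrambled libraries (log2 1.63 ± 0.03). HEXA and the cholesterol carrier NPC2 rose by 1.21 and 1.36, and the autophagy gene GABARAPL1 by 2.15 on the log2 scale. LAMP1 (254 CPM in hairpin 2 cells and 261 CPM in scrambled cells) did not pass, and CTSC, NPC1, NEU1 and MAP1LC3B fell.

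Of the lipid droplet and efflux genes, 8 of 15 rose and 3 fell. PLIN2, which coats lipid droplets, had 440.3, 444 and 467 CPM in hairpin 2 libraries, against 71.1, 72.0 and 72.1 CPM in scrambled libraries, with no overlap (log2 2.65 ± 0.05). The cholesterol exporter ABCA1 averaged 2.12 CPM in hairpin 2 cells and 0.140 CPM in scrambled cells (log2 3.77 ± 0.32), and 4.65 on the log2 scale without scrambled replicate 2. FABP5 fell by 1.03. Proteases and their inhibitors rose in 16 of 18 cases (median log2 0.97); MMP9 averaged 18.2 CPM in hairpin 2 cells and 4.53 CPM in scrambled cells (log2 2.01 ± 0.09) and the inhibitor TIMP2 91.9 CPM in hairpin 2 cells and 40.7 CPM in scrambled cells (log2 1.18 ± 0.07). CST7, an inhibitor of cathepsins, and MMP2 fell, by 1.16 and 0.22; MMP2 lost its call without replicate 3 of both groups (-0.15).

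Adhesion and cytoskeletal genes were higher in 27 of 34 cases and lower in 6 (median log2 0.58). The annexins ANXA1 and ANXA2 averaged 314 CPM in hairpin 2 cells and 64.3 CPM in scrambled cells, and 672 CPM in hairpin 2 cells and 273 CPM in scrambled cells (log2 2.29 ± 0.07 and 1.30 ± 0.04). The intermediate filament VIM rose by 1.61, tropomyosin TPM4 by 1.36 and filamin FLNA by 0.83 on the log2 scale. The cytoplasmic actins ACTB and ACTG1 fell, by 0.30 and 0.40, and the tetraspanin CD9 by 0.87.

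Genes of cell growth fell. Of 35 genes for MYC, its partners and ribosome biogenesis, 31 fell, 18 of them by at least 2-fold, and 2 rose, with a median log2 change of -1.05. MYC, the transcription factor that drives ribosome production, had 88.1, 86.6 and 84.6 CPM in hairpin 2 libraries, against 284, 273 and 292 CPM in scrambled libraries (log2 -1.71 ± 0.04, edgeR quasi-likelihood, Benjamini-Hochberg adjusted p = 9.46e-22). The nucleolar protein NCL had 772, 745 and 780.1 CPM in hairpin 2 libraries, against 1676, 1730 and 1654 CPM in scrambled libraries (log2 -1.14 ± 0.03). ODC1, the first enzyme of polyamine synthesis, had 191, 190.1 and 201 CPM in hairpin 2 libraries, against 526, 539.6 and 500.3 CPM in scrambled libraries (log2 -1.43 ± 0.04). In all 3 genes, each hairpin 2 library was below every scrambled library.

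Genes for different steps of ribosome assembly fell: NOP56 (277 against 538 CPM, log2 -0.96) and FBL (170.0 against 385 CPM, log2 -1.18) of the snoRNP core, POLR1A (62.1 against 129 CPM, log2 -1.05) of RNA polymerase I, and PES1 (59.1 against 141 CPM, log2 -1.25) of large subunit processing, each given as hairpin 2 against scrambled means. The MYC antagonists MXD1 and MNT were the 2 that rose, by 0.59 and 0.21, although MNT lost its call without hairpin 2 replicate 1 (0.18) or scrambled replicate 2 (0.15). MAX (log2 0.02) and MXI1 (0.03) did not pass. The E-box CACGTG, the known binding sequence of MYC and MAX, was present in 10 of 29 promoters of this list (34.5%), against 7.26% of all promoters in the RefSeq table and 11.3% of the interferon list. Outside the list, the share was 18.5% among genes lower by at least 2-fold, 9.52% among genes not called and 6.02% among genes higher by at least 2-fold. NCL, ODC1, NOP56 and NOP16 hold none in the window.

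Cytosolic ribosomal proteins fell in 51 of 52 cases (median log2 -0.52). The others lay between -1.15 (RPL12) and -0.16 (RPS20). RPL27 was lowest at -1.58, with 229, 261 and 254 CPM in hairpin 2 libraries, against 772, 713 and 747 CPM in scrambled libraries, and RPS27 the member that did not pass (-0.08). Processed pseudogenes of ribosomal protein genes are many, so some of these reads may have been shared in counting. TERT, the telomerase catalytic subunit, had 0.626, 0.458 and 0.535 CPM in hairpin 2 libraries, against 5.28, 5.71 and 5.10 CPM in scrambled libraries (log2 -3.30 ± 0.13).

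**Figure D2:**
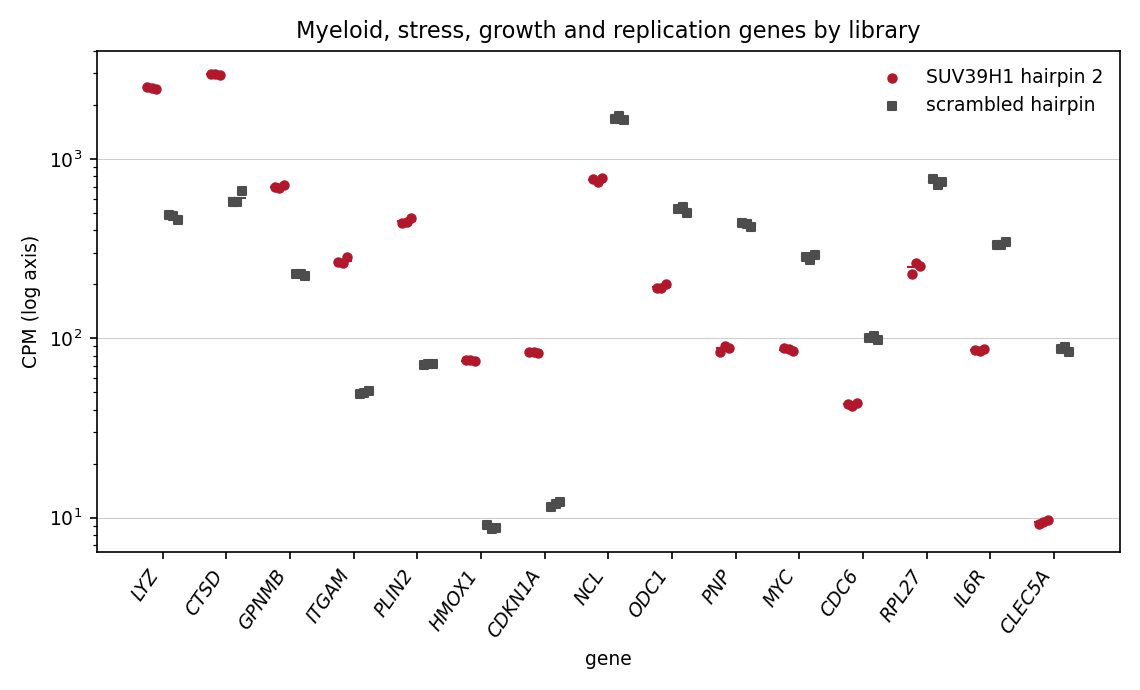
Levels of 15 genes of the myeloid, lysosomal, lipid, growth and cell cycle groups in each library, in CPM after TMM scaling on a log axis, with red circles for SUV39H1 hairpin 2, grey squares for scrambled and bars for means. LYZ, CTSD, ITGAM, PLIN2 and CDKN1A are higher with hairpin 2, and NCL, ODC1, PNP, MYC and CLEC5A are lower, with no overlap between the 3 libraries of each group. For PNP and CLEC5A the lack of overlap was a condition of their place among the 20 largest falls.

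DNA replication genes fell in 38 of 44 cases and rose in 3 (median log2 -0.49). CDC6, which loads the replicative helicase, had 43.1, 41.8 and 43.6 CPM in hairpin 2 libraries, against 100.2, 102 and 97.9 CPM in scrambled libraries (log2 -1.22 ± 0.04, edgeR quasi-likelihood, Benjamini-Hochberg adjusted p = 7.41e-20). The helicase subunits of the MCM complex fell by 0.49 (MCM5) to 0.86 (MCM6), GINS2 by 1.18 and cyclin E1 (CCNE1) by 1.44 on the log2 scale. E2F1, E2F2 and CCNE2 were the 3 that rose. DNA repair genes fell in 25 of 34 cases (median -0.26), EXO1 most at -1.08; BRCA2 rose by 0.91. Mitotic genes did not share this direction: 17 of 42 rose and 10 fell, the median was 0.05, and MKI67 averaged 432 CPM in hairpin 2 cells and 472 CPM in scrambled cells and did not pass. MKI67 passed as lower under some other settings, such as a fit of only the compared libraries (log2 -0.13).

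CDKN1A (p21), an inhibitor of cyclin-dependent kinases, had 84.1, 83.7 and 83.2 CPM in hairpin 2 libraries, against 11.5, 12.0 and 12.2 CPM in scrambled libraries, a 7.03-fold difference without overlap (log2 2.81 ± 0.05, edgeR quasi-likelihood, Benjamini-Hochberg adjusted p = 2.58e-25). In the list of p53 targets and arrest genes 20 of 29 rose and 2 fell (median 0.53): BTG2 rose by 2.09, CDKN2B by 1.68, CDKN2D by 1.56, CDKN1C by 1.45, CDKN2C by 0.56, CDKN1B by 0.17 and CCNG2 by 1.42, while CCND2 fell by 1.61. MDM2 (36.0 CPM in hairpin 2 cells and 36.7 CPM in scrambled cells), FDXR and ZMAT3, other targets of p53, did not pass. Of 26 BCL2 family and apoptosis genes 14 rose and 6 fell; BMF, a BH3-only killer protein, rose by 1.92, CASP8 and CASP10 by 0.72 and 0.99, and BIRC5 (survivin), counted with the mitotic genes, fell by 1.27.

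Biosynthetic genes leaned down. In the sterol and fatty acid list 21 of 29 fell and 4 rose (median log2 -0.43): FASN, the fatty acid synthase, averaged 165 CPM in hairpin 2 cells and 390.2 CPM in scrambled cells (log2 -1.24 ± 0.09), SCD, the desaturase, 181 CPM in hairpin 2 cells and 414 CPM in scrambled cells (log2 -1.19 ± 0.04), and INSIG1 42.2 CPM in hairpin 2 cells and 97.4 CPM in scrambled cells (log2 -1.21 ± 0.05). Of 27 glycolytic and hypoxia genes 15 fell and 7 rose (median -0.23), with LDHA at -0.88 and the glucose transporter SLC2A1 at -0.94. Of 32 amino acid and ER stress genes 17 fell and 11 rose (median -0.21). The shares that fell in the glycolysis and amino acid lists, 55.6 and 53.1%, lay near the 53.4% of all genes with at least 100 CPM. The transporter SLC7A5 fell by 1.13 and the cystine importer SLC7A11 rose by 1.96, with 85.8, 76.2 and 79.1 CPM in hairpin 2 libraries, against 21.8, 20.8 and 19.3 CPM in scrambled libraries.

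Oxidative stress and iron genes rose in 12 of 21 cases and fell in 6 (median log2 0.29). Haem oxygenase HMOX1 had 75.2, 75.8 and 74.3 CPM in hairpin 2 libraries, against 9.05, 8.65 and 8.73 CPM in scrambled libraries (log2 3.09 ± 0.07), and ferritin heavy chain FTH1 averaged 834 CPM in hairpin 2 cells and 234 CPM in scrambled cells (log2 1.83 ± 0.07). The light chain FTL, the most abundant gene in hairpin 2 cells, averaged 10910 CPM there and 6318 CPM in scrambled cells (log2 0.79 ± 0.03). NQO1 and SRXN1 rose by 1.27 and 1.57; the metallothionein MT1G and the importer TFRC fell by 1.38 and 0.78.

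Chromatin regulators were mixed. Among HP1, TRIM28 and HUSH complex genes 6 of 20 rose and 9 fell (median log2 -0.07): the HP1 genes CBX1 and CBX5 rose by 0.27 and 0.30, CBX3 did not pass (-0.06), and the KRAB corepressor TRIM28 fell, averaging 446 CPM in hairpin 2 cells and 664 CPM in scrambled cells (log2 -0.57 ± 0.07). The maintenance methyltransferase DNMT1 averaged 271 CPM in hairpin 2 cells and 418 CPM in scrambled cells (log2 -0.62 ± 0.05), and UHRF1, which recruits it, fell by 0.65; DNMT3A and DNMT3B rose by 0.20 and 0.30, DNMT3A without a call when scrambled replicate 1 was left out (0.14). Among 12 H3K9 demethylases 6 rose and 2 fell, with JMJD1C at 0.76 and KDM1A at -0.35. Of 21 Polycomb genes 4 rose and 7 fell (median -0.06), and BMI1 and CBX7 are its extremes. BMI1 had 296, 291 and 278 CPM in hairpin 2 libraries, against 745, 760.2 and 667 CPM in scrambled libraries (log2 -1.33 ± 0.06), and CBX7 rose by 1.06. Of 18 histone variant and linker histone genes tested, 12 rose and none fell (median 0.37); the linker histone H1F0 averaged 209 CPM in hairpin 2 cells and 116 CPM in scrambled cells (log2 0.86 ± 0.03).

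**Figure D3:**
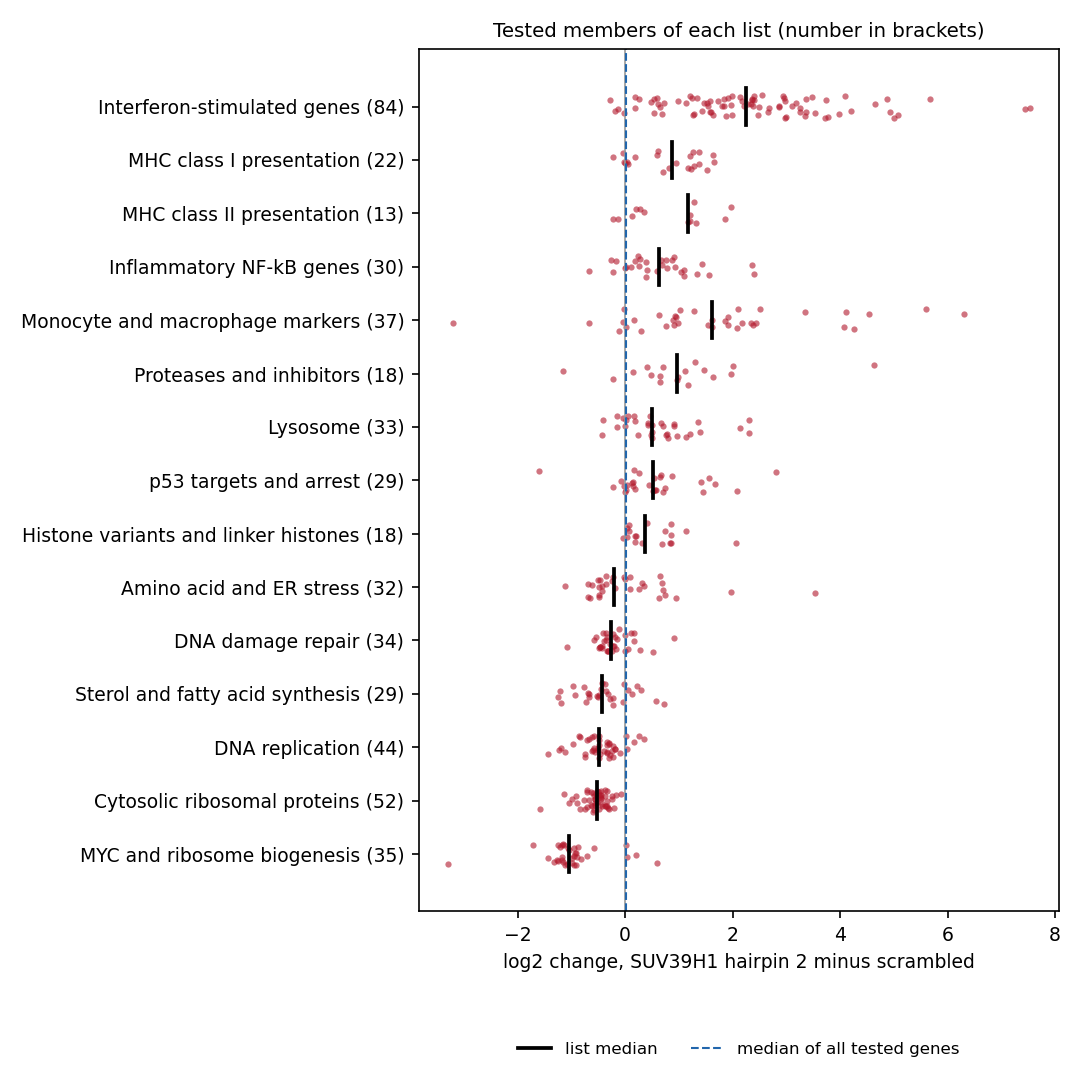
Log2 change of each tested gene in 15 lists, SUV39H1 hairpin 2 minus scrambled; each point is 1 gene, the bar is the list median and the dashed line the median of all 20147 genes at 0.02. The interferon list lies furthest to the higher side, with a median of 2.25, and the MYC and ribosome biogenesis list furthest to the lower side, with a median of -1.05.

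Beyond the lists, the largest rises included membrane transporters and receptors of myeloid cells. SLCO2B1, an organic anion transporter, had 39.7, 37.2 and 38.6 CPM in hairpin 2 libraries, against 0.845, 0.906 and 1.03 CPM in scrambled libraries (log2 5.37 ± 0.09). P2RY13, an ADP receptor, averaged 4.95 CPM in hairpin 2 cells and 0.0906 CPM in scrambled cells (log2 5.64 ± 0.24), LILRA5 11.8 CPM in hairpin 2 cells and 0.438 CPM in scrambled cells and the Toll-like receptor TLR6 8.97 CPM in hairpin 2 cells and 0.512 CPM in scrambled cells. TRIM22, an antiviral protein already counted in the interferon list, had 127, 122 and 128 CPM in hairpin 2 libraries, against 8.66, 10.0 and 9.57 CPM in scrambled libraries (log2 3.73 ± 0.07). GPR34, SUCNR1, MYOF and TRANK1 were also among the 20 highest, with log2 changes of 3.86, 3.61, 3.86 and 3.81. On the lower side PNP, the purine nucleoside phosphorylase, had 84.2, 90.5 and 88.4 CPM in hairpin 2 libraries, against 442, 435 and 415 CPM in scrambled libraries (log2 -2.30 ± 0.04, edgeR quasi-likelihood, Benjamini-Hochberg adjusted p = 2.41e-25). The cytokine receptor IL6R had 86.5, 85.2 and 87.5 CPM in hairpin 2 libraries, against 332, 333 and 346 CPM in scrambled libraries (log2 -1.96 ± 0.03).

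The remaining genes of the 20 with the largest falls ran from -4.17 (FRMPD2) to -1.90 (PTPRU). NOB1, an endonuclease of small subunit maturation, averaged 20.4 CPM in hairpin 2 cells and 79.0 CPM in scrambled cells (log2 -1.95 ± 0.05), and SRP9, a subunit of the signal recognition particle that also binds Alu RNA, 62.9 CPM in hairpin 2 cells and 238 CPM in scrambled cells (log2 -1.92 ± 0.07). SRP9P1, its pseudogene, fell by a like amount (-1.95), and both may share reads. HRSP12, RGS16 and the testis gene ACTL8 fell by 2.22, 2.02 and 2.55, and FJX1, CTXN1, MAP7D2, KRT9, RASL11A, EML1, TNFRSF19 and NEGR1 by 1.96 to 2.36 on the log2 scale.

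Repeat transcripts were more abundant with hairpin 2. They made up 7.34, 7.22 and 7.64% as many counts as genes in hairpin 2 libraries, against 5.63, 5.85 and 5.81% in scrambled libraries, with no overlap. The other hairpins were above the scrambled level too: repeat counts were 7.74 to 7.84% of gene counts with hairpin 4 and 6.45 to 7.14% with the G9a hairpins, and the median log2 change against the same scrambled libraries was 0.36 with hairpin 4 and 0.28 with the G9a hairpins. Counts were given per repeat name, summed over the genome, and reads of near-identical copies, or of repeats inside gene transcripts, cannot be told apart. With the scaling of the gene table, 712 of 929 names tested were called (76.6%), 653 higher (70.3%) and 59 lower (6.35%), with a median log2 change of 0.35. Changes of at least 2-fold were few: 51 higher (5.49%) and 7 lower (0.753%). With the repeat table's own scaling, which sets the typical repeat near no change, 256 names were higher and 221 lower.

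The repeat classes are read against all names tested, of which 70.3% were higher and 6.35% lower, with a median log2 change of 0.35. Primate LINE-1 elements of the L1HS and L1PA names, a lineage that includes the copies still mobile in humans, were higher in 17 of 18 names (94.4%, median log2 0.55). Under the repeat table's own scaling 13 of the 18 were higher and 2 lower. L1PA7 had 181, 177 and 188 CPM in hairpin 2 libraries, against 112, 120.0 and 118 CPM in scrambled libraries (log2 0.64 ± 0.05). The youngest names were less even: L1HS had 105, 79.4 and 140.2 CPM in hairpin 2 libraries, against 74.4, 73.7 and 53.8 CPM in scrambled libraries, so that 1 hairpin 2 library lay near the controls (log2 0.69 ± 0.26, edgeR quasi-likelihood, Benjamini-Hochberg adjusted p = 0.0178). The L1HS call was lost with DESeq2 (0.67), under the repeat table's own scaling (0.37), and without hairpin 2 replicate 3 (0.45), scrambled replicate 3 (0.54) or both (0.32). Alu elements were higher in 30 of 36 names (83.3%), but their median of 0.25 lay below the 0.35 of all names. The direction of the Alu names turned under the repeat table's own scaling, with 2 higher and 16 lower. Among endogenous retroviruses HERVE-int had 83.1, 81.7 and 89.9 CPM in hairpin 2 libraries, against 32.5, 33.0 and 37.0 CPM in scrambled libraries (log2 1.32 ± 0.06), and the HERVH and LTR7 names were higher in 6 of 6 (2 higher and none lower with the other scaling). The composite SVA elements had 2 of 6 higher (33.3%, against 70.3% of all names) and none lower (2 and 4 with the other scaling).

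Single names stood out in both directions under both scalings. FAM, a monomer related to Alu, had 347, 349 and 366 CPM in hairpin 2 libraries, against 140.2, 139 and 141 CPM in scrambled libraries (log2 1.34 ± 0.04, edgeR quasi-likelihood, Benjamini-Hochberg adjusted p = 5.97e-22). The satellite HSAT4 averaged 8.79 CPM in hairpin 2 cells and 3.42 CPM in scrambled cells (log2 1.35 ± 0.10), and the retroviral names MamGypLTR2c, LTR54, THE1-int, LTR23-int and HERVK11-int rose by 1.14 to 1.61. The satellite SST1 fell, with 59.6, 59.5 and 68.9 CPM in hairpin 2 libraries, against 146, 152 and 161 CPM in scrambled libraries (log2 -1.28 ± 0.06, edgeR quasi-likelihood, Benjamini-Hochberg adjusted p = 4.01e-16). Of 20 satellite names 9 were higher and SST1 alone was lower (5 and 3 with the other scaling). The 45.0% of satellite names that were higher lay below the 70.3% of all repeat names. The alpha satellite of centromeres, ALR/Alpha, averaged 20.4 CPM in hairpin 2 cells and 19.1 CPM in scrambled cells and did not pass. With the other scaling ALR/Alpha was lower (log2 -0.22). Eulor9A fell by 1.90, and LTR21A, X3_LINE, HAL1-3A_ME, MER50-int, LTR5 and MER97d by 0.59 to 1.17. MER41 names, retroviral elements known as carriers of interferon response sequences in human cells, were grouped with MER61 names. Of these 14 names 6 were higher (42.9%) and 5 lower (35.7%), against 70.3 and 6.35% of all names. With the other scaling 3 were higher and 6 lower.

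**Figure D4:**
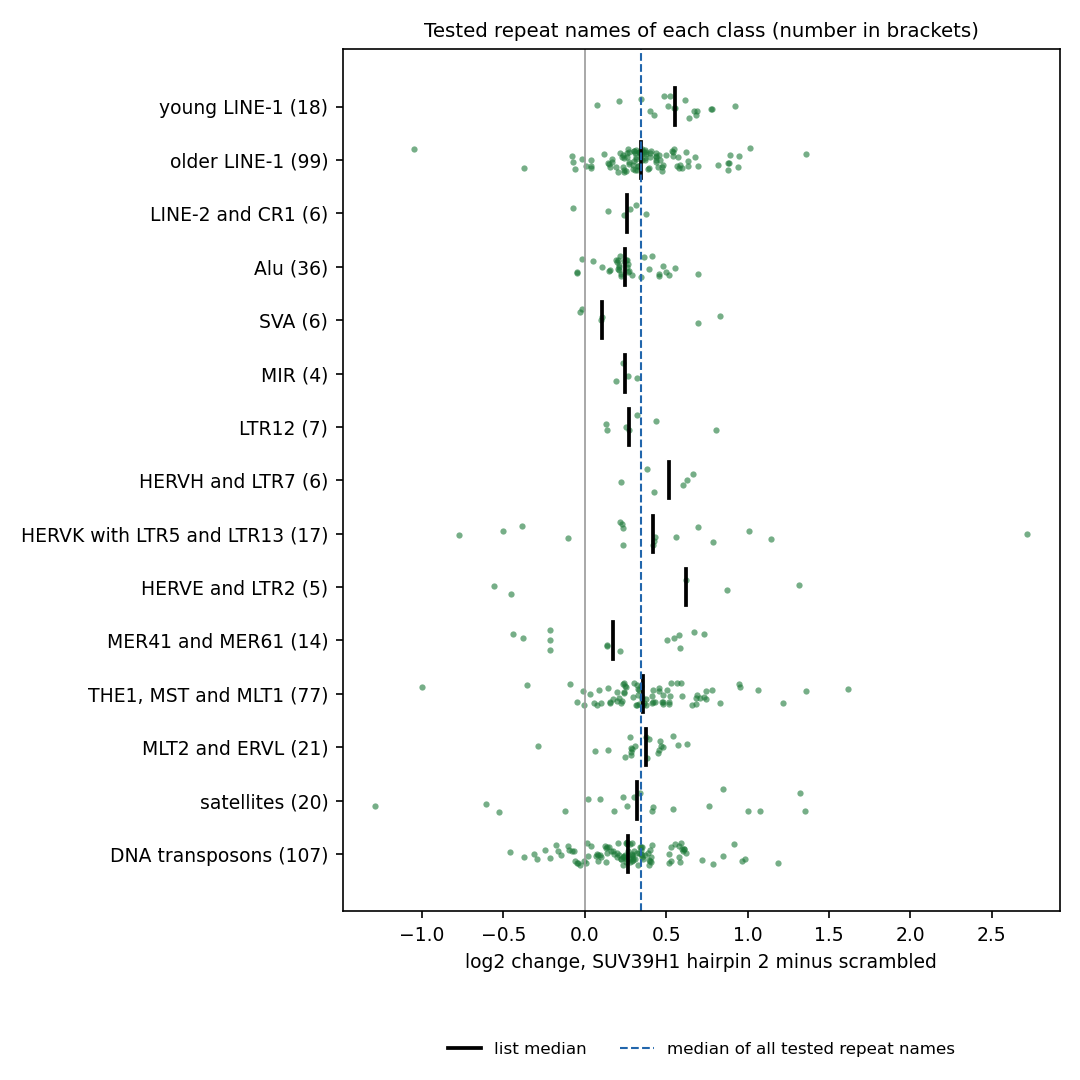
Log2 change of each tested repeat name in 15 classes, SUV39H1 hairpin 2 minus scrambled, with the gene table's scaling; young LINE-1 means the L1HS and L1PA names, each point is 1 name, the bar is the class median and the dashed line the median of all 929 names at 0.35. Most classes lie above 0, and SST1 is the lowest satellite point at -1.28.

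Hairpin 4, aimed at the same gene, allowed a direct comparison that uses no control library. SUV39H1 itself had 18.2, 18.9 and 18.9 CPM in hairpin 2 libraries, against 20.4, 19.8 and 23.2 CPM in hairpin 4 libraries, a small further reduction (log2 -0.18 ± 0.07, edgeR quasi-likelihood, Benjamini-Hochberg adjusted p = 0.0382). This call was lost when any 1 hairpin 2 library was left out (log2 -0.20 to -0.16) and without hairpin 4 replicate 3 (-0.12). SUV39H2 differed more, averaging 13.5 CPM under hairpin 2 and 20.5 CPM under hairpin 4 (log2 -0.60 ± 0.07). EHMT1 and EHMT2 were lower with hairpin 2 by 0.17 and 0.24. Across genes 8645 differed (42.9%), 4207 higher (20.9%) and 4438 lower (22.0%) with hairpin 2, around a median log2 difference of -0.01.

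The interferon genes separated the hairpins. Of 84 tested, 81 were higher with hairpin 2 than with hairpin 4 and 1 lower, with a median difference of 0.93. Against the same scrambled libraries, which both share, the list's median was 2.25 for hairpin 2 and 1.04 for hairpin 4. IFI6 had 1256, 1277 and 1168 CPM under hairpin 2, against 387, 382 and 359 CPM under hairpin 4 (log2 1.71 ± 0.07, edgeR quasi-likelihood, Benjamini-Hochberg adjusted p = 4.63e-17). CXCL11 had 26.4, 26.9 and 27.5 CPM, against 3.65, 4.30 and 3.99 CPM with hairpin 4 (log2 2.76 ± 0.11), and CXCL10 34.5, 37.3 and 34.8 CPM, against 7.40, 6.89 and 6.86 CPM (log2 2.33 ± 0.10). Further large differences were those of IFI44L (4.66 ± 0.17), OAS2 (3.50 ± 0.12), IFI44 (3.13 ± 0.07), P2RY13 (2.79 ± 0.15), IFI27 (2.63 ± 0.10), CCR2 (2.56 ± 0.07) and GBP1 (2.46 ± 0.17). IFNB1 was also higher, by 1.86 ± 0.29 on the log2 scale.

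Several other lists differed between the hairpins too. Class I genes were higher with hairpin 2 in 18 of 22 cases and lower in 1 (median 0.37), class II genes in 12 of 13 (0.64), and monocyte genes in 26 of 37, with 5 lower (0.60). LYZ had 2503, 2484 and 2442 CPM with hairpin 2 and 1336, 1320 and 1298 CPM with hairpin 4 (log2 0.91 ± 0.04). MYC and ribosome biogenesis genes were lower in 29 of 35 cases and higher in 2 (median -0.35), with MYC at 88.1, 86.6 and 84.6 CPM, against 144, 139 and 142 CPM in hairpin 4 libraries (log2 -0.71 ± 0.04). Replication genes were lower in 30 of 44 and higher in 1 (-0.22). Ribosomal proteins were split, 6 higher and 9 lower of 52 with a median of 0.01, and HMOX1 was slightly lower with hairpin 2 (-0.28 ± 0.06).

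Amino acid synthesis genes included several that were lower with hairpin 2 than with hairpin 4. ASNS, asparagine synthetase, had 61.7, 58.3 and 63.7 CPM with hairpin 2 and 182, 181 and 183 CPM with hairpin 4 (log2 -1.57 ± 0.04, edgeR quasi-likelihood, Benjamini-Hochberg adjusted p = 1.28e-20); scrambled libraries had 86.1, 87.2 and 83.8 CPM. The values lay below the scrambled ones with hairpin 2 and above them with hairpin 4. PSAT1 of serine synthesis differed by -1.43 ± 0.05, and the transporter SLC38A1 by -1.44 ± 0.05. In the amino acid and ER stress list 20 of 32 were lower and 5 higher (median -0.26). GDAP1L1 headed the lower side, with 0.313, 0.122 and 0.243 CPM under hairpin 2 and 4.21, 4.45 and 4.29 CPM under hairpin 4 (log2 -4.19 ± 0.17); MAP7D2, KCNG1, PIGK and IL6R were lower by 1.43 to 1.68. Histone variant and linker histone genes ran the other way, 14 of 18 higher and none lower (median 0.63).

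**Figure D5:**
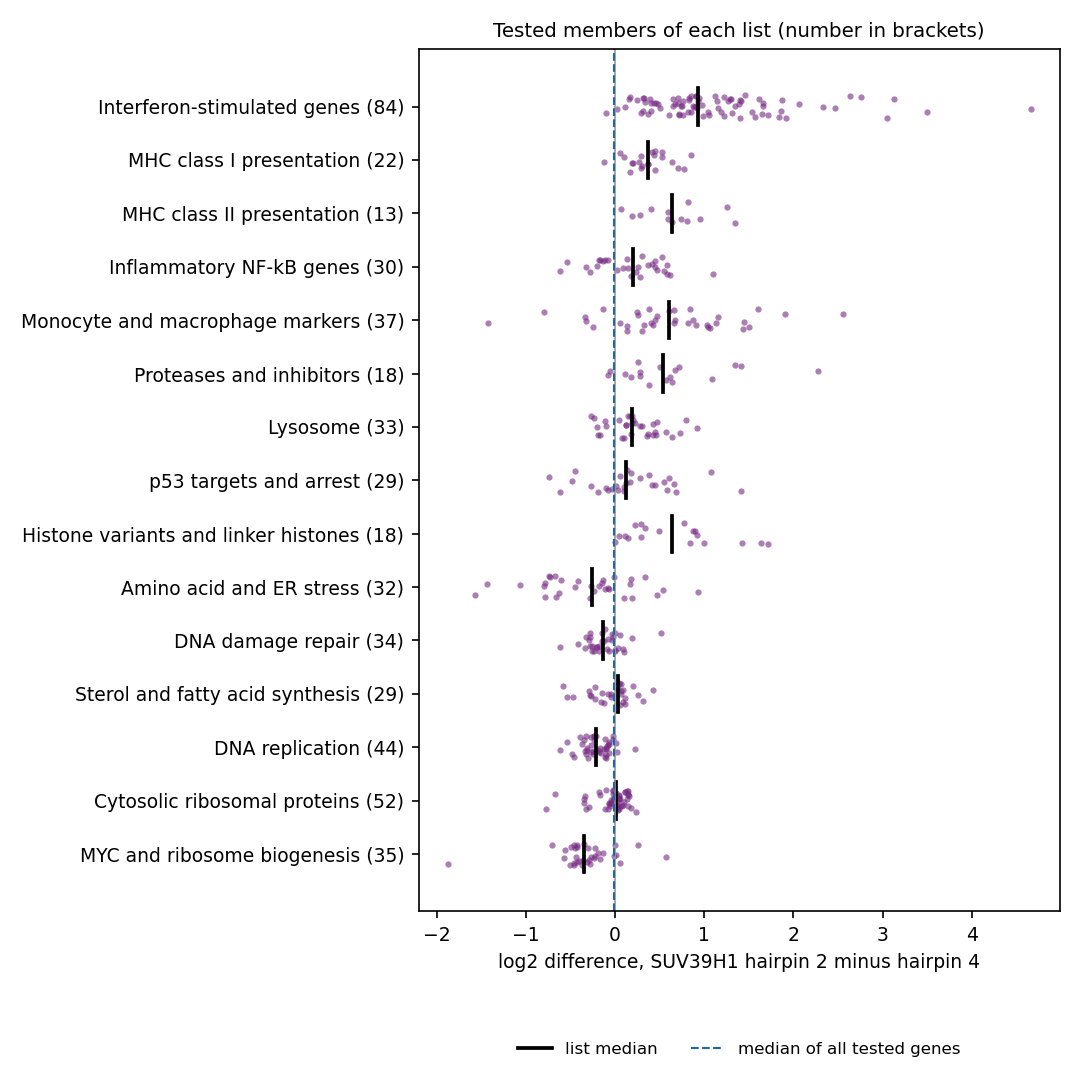
Log2 difference of each tested gene in the same 15 lists, SUV39H1 hairpin 2 minus SUV39H1 hairpin 4; each point is 1 gene, the bar is the list median and the dashed line the median of all genes at -0.01. The interferon list has a median of 0.93 and the MYC and ribosome biogenesis list one of -0.35, while ribosomal proteins centre on 0.01.

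Repeats were compared between the hairpins in the same way. Of 929 names 172 differed (18.5%), 86 higher (9.26%) and 86 lower (9.26%), with a median of -0.02. With the repeat table's own scaling 118 were higher and 74 lower, and the count of lower names fell to 34 without hairpin 2 replicate 1 and 46 without its replicate 2, that of higher names to 52 without hairpin 4 replicate 1. FAM was higher with hairpin 2 by 0.75 ± 0.04 and SST1 lower, with 59.6, 59.5 and 68.9 CPM under hairpin 2 and 103, 109.7 and 119 CPM under hairpin 4 (log2 -0.82 ± 0.06, edgeR quasi-likelihood, Benjamini-Hochberg adjusted p = 1.15e-10). MER107, MER34B-int and LTR54 were higher by 0.54 to 0.61, and HERVFH21-int, HERV15-int and MER63C lower by 0.49 to 0.60 on the log2 scale. The call on HERV15-int was lost without hairpin 2 replicate 1. The median difference of the 18 L1HS and L1PA names was 0.01.

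Against the mean of the G9a hairpins, hairpin 2 cells differed in 13182 genes (65.4%), 6525 higher (32.4%) and 6657 lower (33.0%). Of the interferon genes 79 of 84 were higher with hairpin 2 and none lower, with a median difference of 1.97; the list's median against the shared scrambled libraries was 2.25 for hairpin 2 and 0.02 for the G9a hairpins. IFI6 had 1256, 1277 and 1168 CPM with hairpin 2, against 28.1, 28.1 and 23.4 CPM with G9a hairpin 2 and 30.0, 27.6 and 27.5 CPM with G9a hairpin 3 (log2 5.49 ± 0.06, edgeR quasi-likelihood, Benjamini-Hochberg adjusted p = 9.51e-30). SIGLEC1 and TRIM22 were higher by 5.12 ± 0.06 and 4.92 ± 0.06, SLCO2B1 and CLEC7A by 5.61 ± 0.07 and 5.17 ± 0.13. OAS2 and IFI44 were higher by 6.18 ± 0.14 and 5.45 ± 0.08. IFI44L had 9.03, 9.12 and 8.36 CPM with hairpin 2, against 0, 0 and 0.0241 CPM with G9a hairpin 2 and 0 CPM in all 3 libraries of G9a hairpin 3. CLEC5A was lower by 3.20 ± 0.05, TERT by 2.38 ± 0.13 and IL6R by 2.38 ± 0.03.

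OR52K3P, SIGLEC8, MAP7D2, ACTL8 and HRSP12 made up the remaining largest differences on the lower side, -2.58 to -2.08 on the log2 scale. As a check of the labels, EHMT2, the G9a gene, had 107, 108 and 111 CPM with hairpin 2, against 76.8, 71.3 and 73.0 CPM with G9a hairpin 2 and 70.6, 77.4 and 71.6 CPM with G9a hairpin 3. SUV39H1 had 55.9, 50.4 and 55.6 CPM with G9a hairpin 2 and 53.6, 56.1 and 57.6 CPM with G9a hairpin 3. Of the repeats 368 differed from the G9a hairpins (39.6%), 259 higher (27.9%) and 109 lower (11.7%), with a median of 0.05, and 241 higher and 202 lower with the repeat table's own scaling. MamGypLTR2c, FAM, LTR54 and MER101 were higher by 1.03 to 1.40, and Eulor9A, SST1, LTR21A and X3_LINE lower by 0.93 to 2.09.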

How the data were processed

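RNA was extracted with Qiagen RNeasy and libraries were made with a TruSeq RNA kit that does not keep strand, per the labels' protocols. The submitters' processing notes name STAR, featureCounts and hg19, with versions, annotation and handling of multi-mapping reads not given in the sources used here. Per the file headers, the authors deposited raw counts per gene name and per repeat name, with the other columns holding summed lengths in bases and numbers of places; 122 gene names cover more than 1 place. From these counts edgeR 4.0.16 (R 4.3.3) fitted all 24 libraries with 1 mean per group, after filterByExpr (minimum count 10, minimum total 15), with TMM factors, quasi-likelihood tests and Benjamini-Hochberg adjustment over all genes or repeats tested. Repeats used the gene table's library sizes and factors. The scripts were tested on simulated data. A call needed an adjusted p under 0.05.

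Genes were named by rule: all H3K9 methyltransferases, the 20 genes with the largest called rises and falls at a mean of at least 2 CPM with no overlap between groups, in any list with 3 or more called members up to 6 of them, taken by p, and further members where their list is described, 8 repeats each way, and fewer for the other comparisons. A few genes that the rule names are not reported here. The libraries, gene lists and repeat classes were chosen with earlier results of these data known. Repeat classes were formed from name patterns, which were narrowed to whole family names after the values had been seen. Promoter sequences came from RefSeq (GRCh38.p14). Alternatives were RLE scaling, DESeq2 1.42.0, no low count filter, a fit of only the compared libraries, a replicate block, leaving out each library, leaving out replicate 3 of both groups (chosen after seeing the data), and the repeat table's own scaling. Nothing identifies the replicates as separate cultures.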

Additional observations from a re-analysis of the deposited data

Results flagged for a closer look

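The genes below are members of the lists examined, other than the ZNF and LINC lists. Hairpin 2 and hairpin 4 moved them in opposite directions against the scrambled libraries, both changes called and at least 0.25 on the log2 scale. They also differed between the hairpins in the direct test. Both comparisons with scrambled share its libraries, so only the direct difference, hairpin 2 minus hairpin 4, tests that the hairpins differ. Of all tested genes, 372 were called in opposite directions at any size with the direct difference called, and 15 met the full rule. The amino acid synthesis genes ASNS (-1.57 directly, with -0.48 for hairpin 2 and 1.09 for hairpin 4 against scrambled), PSAT1 (-1.43, with -0.69 and 0.74), CTH (-1.06, with -0.61 and 0.45) and CBS (-0.67, with -0.36 and 0.31) were lower with hairpin 2. The linker and core histone genes HIST1H1C (1.71, with 0.68 and -1.03), HIST1H2AC (1.42, with 0.32 and -1.10) and H1FX (0.78, with 0.41 and -0.36) were higher with hairpin 2. The call on HIST1H2AC against scrambled was lost with DESeq2 (log2 0.30) and when 1 library was left out, for 4 of the 6 libraries (0.26 to 0.30), or replicate 3 of both groups (0.25).

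The direct difference was also positive for the collagenase MMP8 (2.28), the B cell survival factor TNFSF13B (1.27), S100A4 (0.75), the mitophagy gene BNIP3L (0.73), the caspase inhibitor XIAP (0.68), the chemokine receptor CXCR4 (0.63), HLA-DRA (0.60) and the glycophorin GYPC (0.57). HIST1H1C had 21.2, 22.9 and 22.4 CPM with hairpin 2, against 6.45, 7.47 and 6.35 CPM with hairpin 4 and 13.1, 15.6 and 12.6 CPM with the scrambled hairpin. MMP8, a scarce transcript, averaged 0.966 CPM with hairpin 2, 0.198 CPM with hairpin 4 and 0.442 CPM with the scrambled hairpin. What sets these genes apart between the hairpins was not tested.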

How the results depend on the processing

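Of 13518 genes called against the scrambled hairpin, 89.4 to 99.8% kept their call and direction under every setting tried on genes, the fewest with replicate 3 of both groups left out and the next without scrambled replicate 2 (92.3%). Leaving out 1 library gave 6444 to 6713 genes higher and 6238 to 6455 lower against scrambled, 3512 to 3789 and 3813 to 4361 against hairpin 4, and 6077 to 6503 and 6095 to 6800 against the G9a hairpins. For repeats the ranges were 587 to 632 higher and 56 to 60 lower against scrambled, 52 to 69 and 34 to 78 against hairpin 4, and 203 to 274 and 80 to 138 against the G9a hairpins. The repeat table's own scaling gave 256 names higher and 221 lower against scrambled and 202 lower against the G9a hairpins. Without a low count filter 137 repeats were lower than with hairpin 4.

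Same-numbered hairpin 2 and scrambled libraries correlated at 0.02, -0.01 and 0.07 in their deviations from the group means, against -0.05 to 0.03 for libraries of unlike number. With 3 libraries a group, these values cannot show whether the numbers mark pairs. A replicate block gave 7074 genes higher and 6690 lower against scrambled, and 13488 of the 13518 calls remained. No other call named in the report ended or began under the block, apart from CIITA (log2 0.13), IFITM2 (-0.18), MKI67 (-0.13) and TBK1 (0.17), which passed under it. All of these also passed in a fit of only the compared libraries, and IFITM2, MKI67 and TBK1 passed without a low count filter. MKI67 passed without hairpin 2 replicate 3 as well (-0.19). Against hairpin 4 the block gave 4435 genes higher and 4664 lower, and against the G9a hairpins 6660 and 6797. For repeats it gave 656 and 62, 95 and 95, and 265 and 116.

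The 456 named values were each tried under those of the 22 settings that covered their comparison and their kind, gene or repeat. A call ended or began for 17 of them, and only ALR/Alpha turned direction, to -0.22 under the repeat table's own scaling. Without scrambled replicate 2 the log2 change of IFI44L was 8.20 and that of ABCA1 4.65, each from few control counts. The cause was not tested. Genes near 0 counts in 1 group, such as IFI44L and GBP1, have folds that depth limits.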

Other observations

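Further gene groups were counted. Of the 370 ZNF genes tested, zinc finger factors that often carry the KRAB repressor domain, 98 rose and 147 fell, 26.5 and 39.7%, against 34.5 and 32.6% of all genes; their median log2 change was -0.06. Between hairpin 2 and hairpin 4, 32 of the 370 were higher with hairpin 2 and 147 lower, against 20.9 and 22.0% of all genes. Long intergenic noncoding genes named LINC rose in 70 of 142 cases and fell in 14, with a median of 0.42. Of 37 germline and cancer testis genes, 9 had enough counts to test: TEX14 (1.03 against 0.327 CPM, log2 1.68), TDRD9 (7.50 against 3.04 CPM, log2 1.30), PIWIL4 (49.1 against 27.3 CPM, log2 0.85), MOV10L1 (0.653 against 0.299 CPM, log2 1.12) and STAG3 (514 against 462 CPM, log2 0.16) rose, and PAGE1 (9.53 against 20.3 CPM, log2 -1.09) fell, means given for hairpin 2 against scrambled. Of 26 clustered protocadherin genes only PCDHGB2 had enough counts to test, and it did not pass (log2 -0.19).

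The share of genes called varied with level, length and chromosome. Among genes with a mean of at least 100 CPM over the 6 libraries, 30.1% rose and 53.4% fell, whereas among those from 1 to under 10 CPM 41.8% rose and 26.6% fell. Genes with summed exons of at least 8000 bases rose in 46.6% of cases and fell in 29.6%, while those under 1000 bases rose in 22.8% and fell in 24.7%. By chromosome the share that rose ran from 25.8% on chromosome 13 to 40.6% on chromosome 17. These features overlap one another, and whether any of them bears on the calls was not tested.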
